A study of Sus scrofa with 37 samples.

Results

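The genes of insulin-like growth factor (IGF) and myostatin growth control were followed in skeletal muscle of Bama minipigs, a small pig breed, over the first 2 days after contusion, a blunt mechanical injury. A list of 10 gene symbols chose the members, and 7 of the 10 had a row in the count table of 9418 rows and passed the filter on low counts, which kept 9411 genes. These were IGF1, IGF1R, IGFBP4, IGFBP5, MSTN, FST and ACVR2B, while IGF2, IGFBP3 and IGFBP6 had no row in the table used here and were not analysed. The design text names 8 animals and 4 biological replicates at each of 7 times, so each injured group has 4 libraries; the groups lie 4 h apart from 4 to 24 h after contusion, with the last at 48 h. A further 9 libraries carry the label Control. The entry for treatment reads the same, mechanical damage, for controls and injured tissue alike, so how control muscle was handled is not known from them. No genotype, drug, age, sex or muscle name is given for any group, and all libraries are labelled as skeletal muscle. Since the labels tie no library to an animal, every p-value measures only the spread between libraries. The 37 libraries outnumber the 8 animals, so most of them share an animal, and the 9 controls cannot all come from different animals.

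IGF1 binds the receptor tyrosine kinase IGF1R and, through insulin receptor substrates, PI3 kinase, AKT and mTOR, drives protein synthesis and the growth of muscle fibres and their precursors. IGF binding proteins carry IGFs outside the cell and hold them from, or hand them to, the receptor. Myostatin (MSTN), a TGF-beta family ligand made by muscle fibres, signals through the activin receptor ACVR2B to SMAD2 and SMAD3 and restrains muscle mass, and follistatin (FST) binds and neutralises myostatin and activins.

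Levels are given in CPM, counts per M after TMM scaling, and differences as log2 fold changes ± standard error from edgeR's quasi-likelihood test. A difference was called at a Benjamini-Hochberg adjusted p under 0.05 over the 9411 genes. Each time was compared with the same 9 controls, so the 7 comparisons are not independent of each other. Levels were not adjusted for transcript length and are compared only within a gene. Column totals ran from 9.86 to 22.88 M (counts in units of 1e6). A floor of 3 counts equalled 0.108 to 0.378 CPM, for counting error only. The lowest count of any of the 7 genes in any library was 15, for IGF1 at 8 h. The libraries also fall into 5 sets that no label names, defined from column totals and from C1QBP, NDUFAF8 and ND6. Sets 2 and 3 hold no control, set 1 holds 2 controls with all 4 libraries of 16 h, set 4 holds 4 controls and set 5 holds 3 controls with all 4 libraries of 48 h. Markers of muscle fibres were present in every library, where 8 of 15 listed fibre genes had a row and none of the 8 was at 0 in any library, and their summed level ran from 82270 to 138800 CPM in the controls. In this bulk tissue, fewer cells of a type and less RNA per cell cannot be told apart.

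The controls differed in fibre makeup. The log2 ratio of TNNT3 counts, the fast troponin T, to TNNT1 counts, the slow troponin T, ran from -2.26 to 3.88 in the controls with a median of -0.57. The medians of the 7 injured groups lay between 2.35 and 3.12. The injured libraries ran from 0.26 to 3.62. Control replicates 1, 5 and 6 (0.99, 2.80 and 2.23) lay inside that range, replicate 7 (3.88) lay above it and the other 5 controls lay below it. The labels do not say whether control and injured tissue came from the same muscle. A fit with this ratio as a term, chosen after the data were seen, is given beside the results whose calls it changes.

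Over the time course IGF1, IGFBP5, MSTN and FST were lower than control at most times, IGFBP4 and IGF1R were higher at 4 and 3 times, and ACVR2B was lower at 24 h. At 4 h, 1 of 7 members was called, beside 18.3% of all genes. The count was 5 of 7 at 8 h (54.0% of all genes) and 3 of 7 at 12 h (31.0%). It was 5 of 7 at 16 h (53.1%), 6 of 7 at 20 h (51.5%) and 6 of 7 at 24 h (53.9%). At 48 h edgeR called 0 of 7 (20.3% of all genes), none had an unadjusted p under 0.05, and DESeq2 also called 0. In all 26 of 49 pairs of member and time were called (53.1%), beside 40.3% of such pairs over all genes. Of the 49 pairs 7 were higher (14.3%) and 19 lower (38.8%), beside 20.2% and 20.1% over all genes. All 7 members passed the test of the 7 times together, as did 83.2% of all genes, so a call in that test does not set the members apart.

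**Figure D1:**
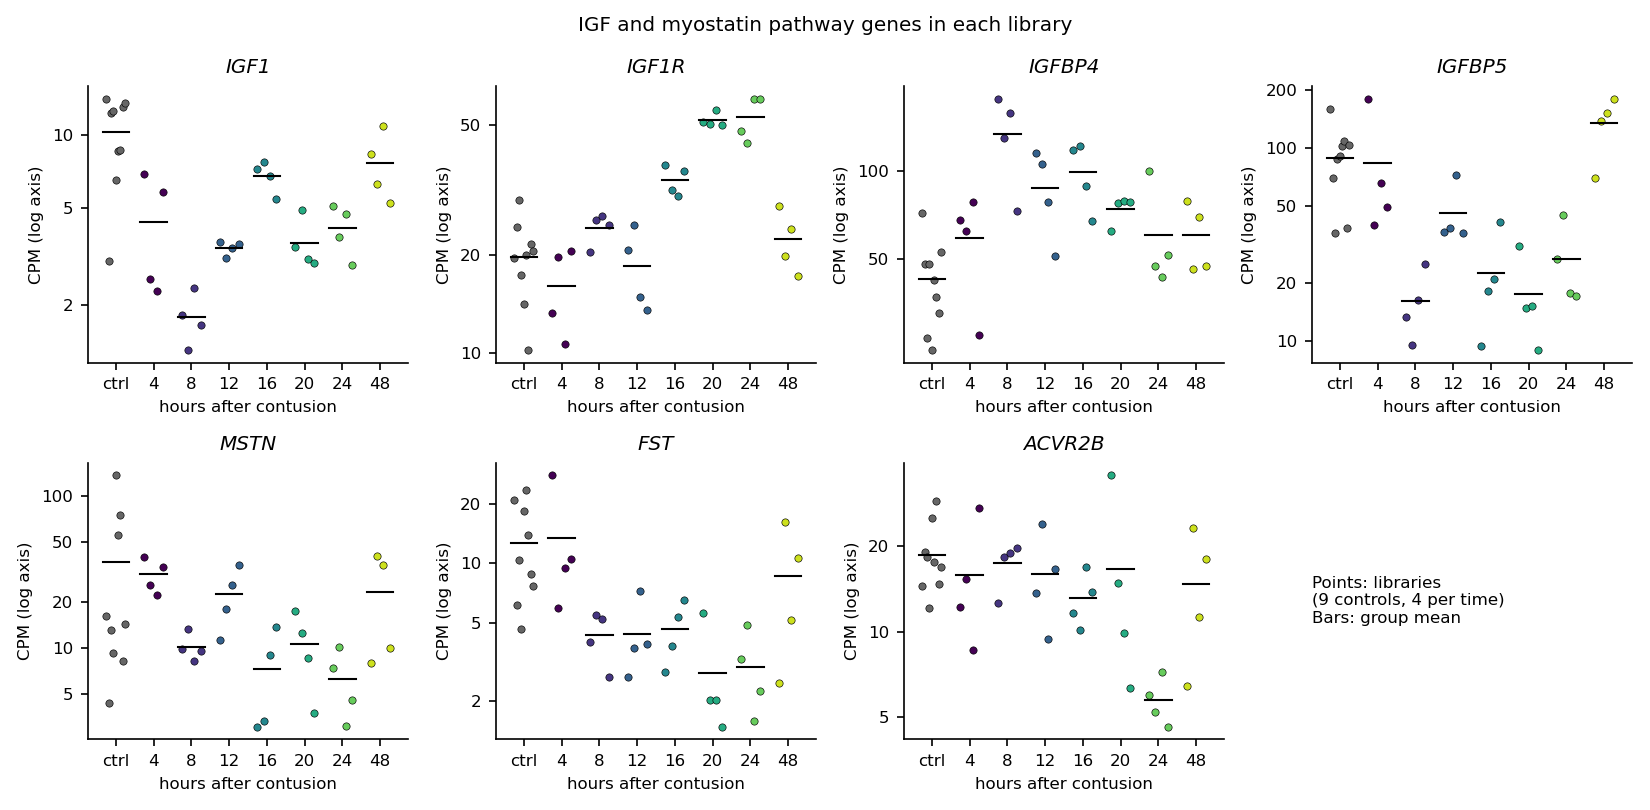
Level of each gene in CPM on a log axis (scales differ between panels) in the 37 libraries, by group; points are libraries, 9 controls and 4 at each time in hours after contusion, and bars are group means. IGF1R at 20 and 24 h lies above all 9 controls, IGF1 and IGFBP5 at 8 h lie below them, and MSTN in the controls spreads from 4.38 to 137 CPM.

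IGF1, the ligand (gene on chromosome 5, 81762027 to 81909253, Sscrofa11.1), was lower than control at 5 of the 7 times, and lowest at 8 h. The 9 controls ran from 3.01 to 14.1 CPM with a median of 12.2 CPM. The 8 h libraries held 1.81, 1.30, 2.35 and 1.66 CPM, all below every control, as in 12.2% of all genes. The difference was -2.52 ± 0.34 on the log2 scale (5.72-fold lower, edgeR adjusted p = 5.48e-07). At 4 h the values were 6.86, 2.55, 2.28 and 5.81 CPM. Replicates 2 and 3 lay below all controls, replicates 1 and 4 lay inside the control range, and IGF1 was called lower by -1.24 ± 0.31 (edgeR adjusted p = 0.00654). The 12 h libraries sat close together at 3.61, 3.12, 3.40 and 3.55 CPM (-1.58 ± 0.32, edgeR adjusted p = 5.58e-04). Only control replicate 2, at 3.01 CPM, lay below them.

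At 16 h IGF1 stood at 7.19, 7.68, 6.74 and 5.43 CPM, and the difference of -0.60 ± 0.29 missed the threshold (edgeR adjusted p = 0.0847). Without control replicate 2 it passed (-0.72, edgeR adjusted p = 0.0183). The 20 h values were 3.45, 4.89, 3.08 and 2.97 CPM (-1.51 ± 0.31, edgeR adjusted p = 1.98e-04) and the 24 h values 5.07, 3.78, 4.72 and 2.92 CPM (-1.32 ± 0.31, edgeR adjusted p = 5.86e-04). Both groups lay mostly between control replicate 2 and the other controls. By 48 h the libraries held 8.34, 6.25, 10.8 and 5.21 CPM, inside the control range (-0.41 ± 0.29, edgeR adjusted p = 0.33). The 4 h call was lost with a term for library set (-1.10, edgeR adjusted p = 0.146) without 4 h replicate 2 (-1.06, edgeR adjusted p = 0.0531) and in a fit of the groups compared alone (-1.23, edgeR adjusted p = 0.0517), and the 24 h call was lost with the set term (-0.92, edgeR adjusted p = 0.064). The sum of the smooth muscle and pericyte markers moved with IGF1 across libraries (r = 0.76 over 37 libraries, 0.42 within groups), as did that of fibroblast markers (0.61 and 0.54). The 8 smooth muscle markers summed to 695 to 1387 CPM in the controls and 359 to 516 CPM at 8 h, and the 12 fibroblast markers to 2346 to 9155 CPM and 1152 to 4009 CPM, with no marker at 0 in any library. Their part in the IGF1 values was not tested.

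IGF1R, the receptor (chromosome 1, 137383623 to 137691038), went the other way and later, rising at 16 h and staying high through 24 h. Controls ran from 10.2 to 29.5 CPM with a median of 20.0 CPM. At 4, 8 and 12 h the libraries spanned 10.6 to 20.5, 20.4 to 26.3 and 13.5 to 24.6 CPM, all inside the control range, and none of the 3 times was called (edgeR adjusted p = 0.294, 0.191 and 0.75). The 16 h libraries held 37.6, 31.6, 30.2 and 36.1 CPM, above every control (0.78 ± 0.19, edgeR adjusted p = 8.9e-04), as 17.2% of all genes were at that time. At 20 h the values were 51.1, 50.3, 55.5 and 50.0 CPM (1.39 ± 0.18, 2.62-fold higher, edgeR adjusted p = 6.57e-07), and the 4 libraries lay within 1.11-fold of each other. At 24 h they were 47.8, 43.9, 60.1 and 60.2 CPM (1.43 ± 0.18, edgeR adjusted p = 3.13e-07). Both times lay wholly above the controls, which 14.2% of all genes did at 20 h and 16.4% at 24 h.

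The 48 h libraries were back at 28.2, 19.8, 24.0 and 17.2 CPM, inside the control range (0.18 ± 0.19, edgeR adjusted p = 0.54 against control). From 24 to 48 h IGF1R fell by 1.25 on the log2 scale (edgeR adjusted p = 3.64e-04). The rise was also present within library sets: in set 1 the 4 libraries of 16 h (30.2 to 37.6 CPM) lay above the 2 controls (19.6 and 24.3 CPM), and in set 4 the 2 libraries of 20 h (50.3 and 55.5 CPM) lay above the 4 controls (14.2 to 29.5 CPM). The calls at 16, 20 and 24 h held with the fibre ratio as a term (1.06, 1.60 and 1.68), which also brought a call at 8 h (0.57, edgeR adjusted p = 0.0432). At 24 h the summed level of the 8 fibre markers was 29580 to 54430 CPM against 82270 to 138800 CPM in the controls. It was 54320 to 69210 CPM at 16 h and 46800 to 118800 CPM at 20 h, which overlapped the controls. The 16 macrophage markers summed to 529 to 2212 CPM at 24 h against 87.6 to 258 CPM in the controls. At 8 and 48 h, with IGF1R inside the control range, they summed to 208 to 937 CPM and 224 to 2199 CPM. None of these genes was at 0 in every library. Whether either plays a part in the IGF1R values was not tested.

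The ratio of receptor to ligand counts within a library, which does not depend on scaling between libraries, combines the changes of both genes. At 8 h only IGF1 of the pair was called against control (-2.52, beside 0.30 for IGF1R). The log2 ratio of IGF1R to IGF1 counts ran from 0.23 to 2.99 in the controls with a median of 0.74. At 8 h it was 3.47, 4.25, 3.46 and 3.86, at 20 h 3.87, 3.35, 4.16 and 4.06, and at 24 h 3.23, 3.53, 3.66 and 4.36. These 12 libraries all lay above every control. At 4, 12, 16 and 48 h the ratio overlapped the controls, and the overlap at 12 and 16 h was with control replicate 2 alone, the library with the lowest IGF1.

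**Figure D2:**
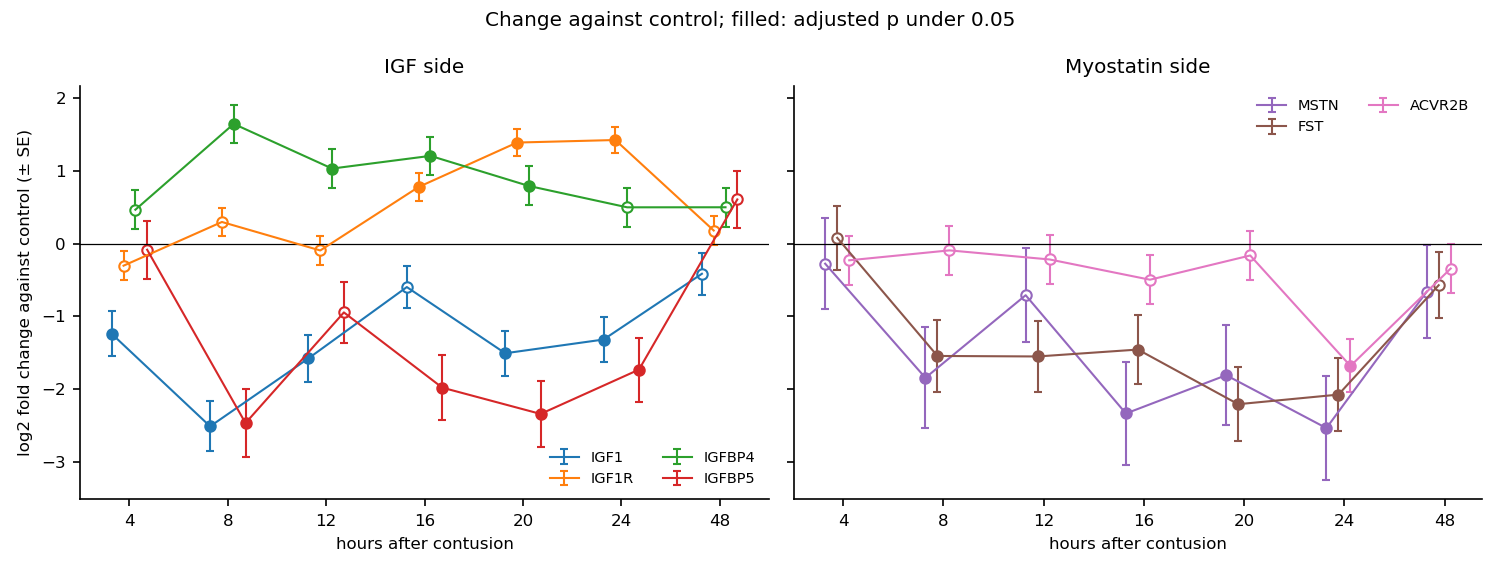
Log2 fold change against the 9 controls at each time in hours after contusion, with standard errors, for the 4 IGF genes (left) and the 3 myostatin genes (right); filled points were called at an edgeR adjusted p under 0.05. IGFBP4 peaks at 8 h (1.65) and IGF1R at 24 h (1.43), IGF1 and IGFBP5 are lowest at 8 h (-2.52 and -2.47), and no point at 48 h is filled.

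Of the binding proteins, IGFBP4 (chromosome 12, 21966524 to 21980043), which mainly holds IGFs from the receptor, was higher from 8 to 20 h. Controls ran from 24.5 to 71.8 CPM with a median of 42.6 CPM. At 8 h the libraries held 177, 130, 157 and 72.7 CPM, and the difference was 1.65 ± 0.26 (3.13-fold higher, edgeR adjusted p = 5.88e-06). All 4 lay above every control, replicate 4 by a narrow margin, as did 13.8% of all genes. The values at 12 h were 115, 106, 78.4 and 51.3 CPM (1.03 ± 0.27, edgeR adjusted p = 0.00424) and at 16 h 118, 121, 89.0 and 67.6 CPM (1.21 ± 0.27, edgeR adjusted p = 3.5e-04). In both groups 3 of 4 libraries exceeded every control and replicate 4 did not. At 20 h IGFBP4 stood at 62.3, 77.5, 78.7 and 78.4 CPM (0.79 ± 0.27, edgeR adjusted p = 0.014).

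At 4, 24 and 48 h IGFBP4 was not called, with differences of 0.47, 0.50 and 0.50 and libraries at 27.5 to 78.4, 43.5 to 99.7 and 46.3 to 78.9 CPM. These calls moved with the library sets. Set 1 held the control with the most IGFBP4 (replicate 1, 71.8 CPM), without which 24 h was called (0.63, edgeR adjusted p = 0.0446). With the set term the 16 h call was lost (0.56, edgeR adjusted p = 0.166) and 4 h and 24 h were called (1.36, edgeR adjusted p = 0.0161, and 1.01, edgeR adjusted p = 0.00442). The 8 h difference within set 1 (130 to 177 CPM against 48.0 and 71.8 CPM) and the 12 h difference within set 4 (106 and 115 CPM against 24.5 to 48.2 CPM) showed no overlap. Summed neutrophil markers moved with IGFBP4 (r = 0.82 over 37 libraries, 0.65 within groups). Macrophage markers did so too (0.62, 0.62 within groups), and adipocyte markers moved against it (-0.66, -0.335 within groups). Of 11 listed neutrophil genes 7 had a row, and their sum ran from 2.71 to 15.1 CPM in the controls, 22.6 to 342 CPM at 8 h and 5.12 to 80.2 CPM at 48 h. No marker of the 7 was at 0 in every library. The part of these cells in the IGFBP4 values was not tested.

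IGFBP5 (chromosome 15, 118861816 to 118877787), a binding protein held in the extracellular matrix, moved opposite to IGFBP4. Controls ran from 36.4 to 159 CPM with a median of 91.5 CPM. At 4 h the libraries were spread over 180, 40.05, 66.1 and 49.3 CPM and not called (-0.08 ± 0.40, edgeR adjusted p = 0.904). At 8 h the values were 13.3, 9.46, 16.3 and 25.2 CPM, all below every control, as in 12.2% of all genes (-2.47 ± 0.46, 5.54-fold lower, edgeR adjusted p = 5.33e-05). The 12 h libraries, at 36.9, 38.7, 72.2 and 36.4 CPM, lay at the low end of the controls and were not called (-0.95 ± 0.42, edgeR adjusted p = 0.0838). Without 12 h replicate 3, the highest, the difference was called (-1.25, edgeR adjusted p = 0.0479), as it was with the fibre ratio as a term (-1.38, edgeR adjusted p = 0.0458).

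IGFBP5 was lower again at 16 h, with 9.41, 18.2, 21.1 and 41.2 CPM (-1.98 ± 0.45, edgeR adjusted p = 4.79e-04), at 20 h, with 31.2, 14.8, 15.2 and 8.96 CPM (-2.34 ± 0.46, edgeR adjusted p = 1.03e-04), and at 24 h, with 26.6, 44.9, 17.8 and 17.1 CPM (-1.73 ± 0.44, edgeR adjusted p = 0.0014). At 20 h all 4 libraries lay below every control (11.8% of all genes), and at 16 and 24 h all but 1 did. By 48 h the values were 70.2, 138, 152 and 181 CPM, with replicate 4 above every control, and the group was not called (0.61 ± 0.39, edgeR adjusted p = 0.281). The change from 24 to 48 h, 2.34 ± 0.49 or 5.07-fold, was called (edgeR adjusted p = 0.00126) and the 2 groups did not overlap. The falls held within sets: in set 1 the libraries of 8 h (9.46 to 16.3 CPM) and 16 h (9.41 to 41.2 CPM) lay below both controls (70.2 and 159 CPM), and in set 4 the 2 of 20 h (14.8 and 15.2 CPM) lay below all 4 controls (36.4 to 91.5 CPM). Across libraries IGFBP5 moved with the summed smooth muscle and pericyte markers (r = 0.75, 0.30 within groups) and fibroblast markers (0.56, 0.39 within groups) and against neutrophil markers (-0.73, -0.49 within groups). Adipocyte markers also moved with it (0.63, 0.34 within groups), and macrophage markers moved against it (-0.53, -0.29 within groups). Of the 12 fibroblast markers 9 were called lower at 8 h and 7 at 20 h, but 5 were lower and 2 higher at 16 h (median -0.06) and 4 lower and 1 higher at 24 h (median -0.11). Their sum at 24 h, 5249 to 5970 CPM, lay inside the control range. Smooth muscle markers summed to 494 to 611 CPM at 16 h and 504 to 628 CPM at 24 h, below every control, and neutrophil markers to 39.0 to 152 CPM and 19.5 to 90.1 CPM, above every control. The part of these cells in the IGFBP5 values was not tested.

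Within a library, the balance of the binding protein counts turned over. The log2 ratio of IGFBP4 to IGFBP5 counts was below 0 in all 9 controls, from -1.90 to -0.23. It was 3.73, 3.77, 3.27 and 1.53 at 8 h, where its median stood 4.47 above that of the controls. The range was 0.12 to 1.64 at 12 h and 0.72 to 3.64 at 16 h, then 0.99 to 3.12 at 20 h and 0.08 to 1.90 at 24 h. All 20 libraries from 8 to 24 h thus lay above every control. How often ratios of other gene pairs separate from the controls was not tested, here or for IGF1R to IGF1. At 48 h replicates 2, 3 and 4 were back at -1.58, -1.13 and -1.93, and replicate 1 stood at 0.17.

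**Figure D3:**
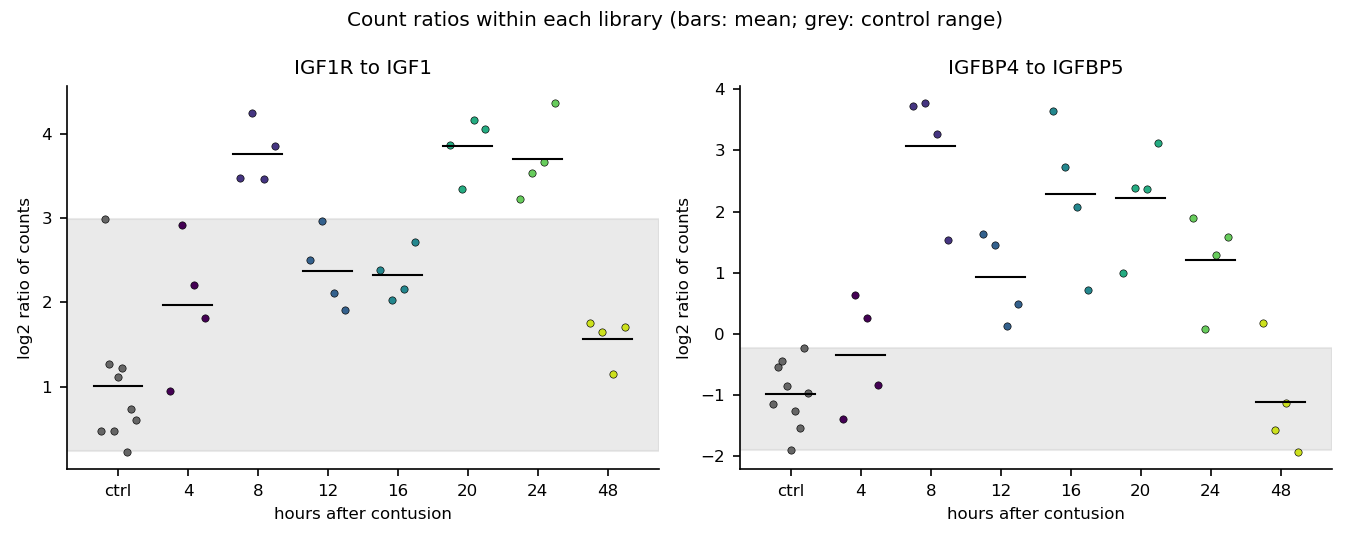
Log2 ratio of IGF1R to IGF1 counts (left) and of IGFBP4 to IGFBP5 counts (right) within each of the 37 libraries, by group in hours after contusion; points are libraries, bars are group means and the grey band is the range of the 9 controls. The IGFBP4 to IGFBP5 ratio lies above the controls in all libraries from 8 to 24 h, and the IGF1R to IGF1 ratio does so at 8, 20 and 24 h.

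MSTN (chromosome 15, 94623526 to 94628440) was called lower at 8, 16, 20 and 24 h, but no group was separate from the controls. The controls were the most spread of any member, from 4.38 to 137 CPM with a median of 14.4 CPM and a coefficient of variation of 121%. At 4 h the libraries held 39.7, 26.0, 22.3 and 34.1 CPM and were not called (-0.28 ± 0.63, edgeR adjusted p = 0.797). All 4 were above the control median. The 8 h values of 9.85, 13.3, 8.23 and 9.60 CPM gave -1.85 ± 0.69 (edgeR adjusted p = 0.0247), and the 12 h values of 11.3, 18.1, 26.0 and 34.9 CPM gave -0.71 ± 0.65 (edgeR adjusted p = 0.421). Only 1 of the 4 libraries of 12 h was below the control median. At 16 h the libraries held 3.05, 3.30, 9.05 and 13.8 CPM (-2.34 ± 0.71, edgeR adjusted p = 0.00663). Replicates 1 and 2 of 16 h lay below every control.

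At 20 h MSTN was at 17.4, 12.5, 8.60 and 3.74 CPM (-1.81 ± 0.69, edgeR adjusted p = 0.028), and at 24 h at 7.45, 10.2, 3.07 and 4.54 CPM (-2.54 ± 0.72, 5.81-fold lower, edgeR adjusted p = 0.00364). All 4 libraries of 24 h were below the control median and 1 was below every control. The 48 h libraries split into 40.3 and 35.2 CPM in replicates 2 and 3 and 8.03 and 9.95 CPM in replicates 1 and 4 (-0.66 ± 0.64, edgeR adjusted p = 0.495). Of these 4 libraries 2 were below the control median. The control mean rests on 3 libraries, since replicates 5, 6 and 7 held 137, 55.5 and 74.6 CPM and the other 6 at most 16.3 CPM. Without control replicate 5 the calls at 8 h (-1.25, edgeR adjusted p = 0.0797) and 20 h (-1.22, edgeR adjusted p = 0.091) were lost. The 8 h call was also lost without any 1 of 8 h replicates 1, 3 and 4 (edgeR adjusted p = 0.0511 to 0.0654), and the 20 h call without 20 h replicate 3 or 4 (edgeR adjusted p = 0.0708 and 0.101). In fits of the groups compared alone 8 h (-1.88, edgeR adjusted p = 0.0724) and 20 h (-1.84, edgeR adjusted p = 0.0915) were not called, nor was 20 h without the libraries of set 2 (-1.80, edgeR adjusted p = 0.145). Within set 1, which holds none of those 3 controls, MSTN at 8 h (8.23 to 13.3 CPM) and 16 h (3.05 to 13.8 CPM) overlapped the controls (4.38 and 16.3 CPM), and with the set term neither time was called (edgeR adjusted p = 0.483 and 0.426). With the replicate number as a block, none of the calls at 8, 16, 20 and 24 h held (-0.79 at 24 h, edgeR adjusted p = 0.261). That fit sets each time against control replicates 1 to 4, without those 3 controls.

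Those same 3 controls had the highest fast to slow troponin ratios of the 9. Over the controls, log2 MSTN and the log2 ratio of TNNT3 to TNNT1 went together with r = 0.92 (n = 9), within groups with r = 0.72, and over all 37 libraries with r = 0.20. These correlations are descriptions of libraries, most of which share an animal. The 3 controls at ratios of 2.23 to 3.88 held more MSTN than any of the 28 injured libraries, whose highest value was 40.3 CPM. With the ratio as a term in the fit the falls were larger: the differences at 8, 16, 20 and 24 h were -2.86 ± 0.53, -3.47 ± 0.55, -2.34 ± 0.50 and -3.46 ± 0.54 (edgeR adjusted p = 7.76e-05, 2.36e-05, 4.16e-04 and 1.57e-05). The 12 h group was called as well (-1.77 ± 0.51, edgeR adjusted p = 0.0168), and so were the steps from 4 to 8 h (-1.73, edgeR adjusted p = 0.0118), 12 to 16 h (-1.70, edgeR adjusted p = 0.023) and 24 to 48 h (2.28, edgeR adjusted p = 0.00269). MSTN also moved with the summed fibre markers (r = 0.58, 0.41 within groups) and with satellite cell and myoblast markers (0.60, 0.65 within groups). Neutrophil (-0.61, -0.50 within groups) and macrophage markers (-0.53, -0.26 within groups) moved against it. The part of these cells in the MSTN values was not tested. The size of the MSTN differences, and the calls at 12 h and for those steps, thus changed with the ratio term. The calls at 8, 16, 20 and 24 h held with it. At the ratios of most injured libraries, however, the only controls were those same 3 with the most MSTN. This fit therefore cannot serve as a check of the calls apart from those 3 controls. Why the ratio differed between control and injured libraries was not tested.

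**Figure D4:**
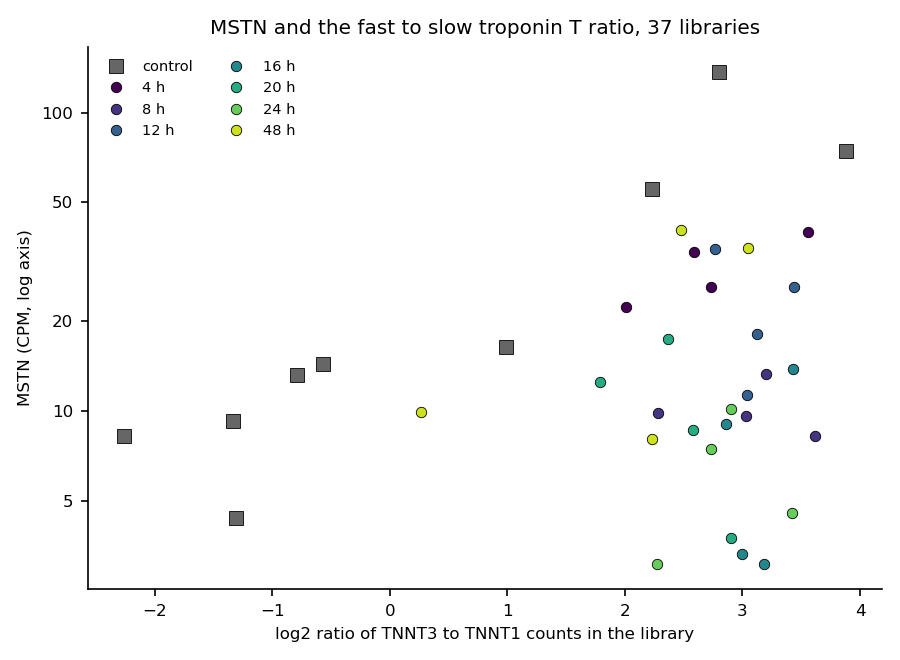
MSTN level in CPM (log axis) against the log2 ratio of TNNT3 to TNNT1 counts in each of the 37 libraries; squares are the 9 controls and circles the injured libraries, coloured by time. MSTN follows the ratio within the controls, and the 3 controls with ratios of 2.23 to 3.88 (55.5 to 137 CPM) lie above all 28 injured libraries.

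FST (chromosome 16, 32806341 to 32811382), the inhibitor of myostatin and activins, was called lower at the 5 times from 8 to 24 h. Controls ran from 4.61 to 23.6 CPM with a median of 10.4 CPM. The 4 h values of 28.0, 5.91, 9.47 and 10.5 CPM held 1 library above every control and gave no call (0.08 ± 0.44, edgeR adjusted p = 0.917). At 8 h FST stood at 3.98, 5.47, 5.21 and 2.65 CPM (-1.55 ± 0.49, edgeR adjusted p = 0.00847), at 12 h at 2.64, 3.70, 7.18 and 3.89 CPM (-1.55 ± 0.49, edgeR adjusted p = 0.017) and at 16 h at 2.80, 3.81, 5.35 and 6.53 CPM (-1.46 ± 0.48, edgeR adjusted p = 0.0115). All 12 libraries were below the control median, and each group overlapped the lowest controls.

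The lowest FST levels came at 20 h, with 5.59, 2.02, 2.03 and 1.48 CPM (-2.21 ± 0.51, 4.63-fold lower, edgeR adjusted p = 6.3e-04), and 24 h, with 3.26, 4.84, 1.57 and 2.23 CPM (-2.08 ± 0.50, edgeR adjusted p = 8.21e-04). In each group 3 of 4 libraries were below every control. At 48 h the values were 2.45, 16.2, 5.17 and 10.6 CPM (-0.57 ± 0.46, edgeR adjusted p = 0.398), with replicates 2 and 4 high and replicates 1 and 3 low. Without replicates 2 and 4 of 48 h, an alternative chosen after the data were seen, FST was called lower at 48 h (-1.74, edgeR adjusted p = 0.0269). The 12 h call was lost without 12 h replicate 1 (-1.37, edgeR adjusted p = 0.0741) and the 16 h call without 16 h replicate 1 (-1.28, edgeR adjusted p = 0.0516). With the replicate number as a block, which leaves control replicates 1 to 4 for comparison, 8, 12 and 16 h were not called. The differences were -1.20, -1.16 and -1.04 (edgeR adjusted p = 0.0845, 0.131 and 0.137). FST also followed the fibre ratio in the controls (r = 0.75, n = 9), and with the ratio as a term its falls from 8 to 24 h lay between -2.09 and -2.64, all called. Over the same 9 controls r was -0.75 for IGF1R, 0.74 for ACVR2B, 0.59 for IGFBP5, -0.15 for IGFBP4 and -0.14 for IGF1. The log2 ratio of FST to MSTN counts overlapped the controls (-2.90 to 0.48) at every time, with group medians from -2.18 at 12 h to -0.44 at 16 h. That of ACVR2B to MSTN counts also overlapped the controls (-2.45 to 2.11) at every time. Across libraries FST moved with the summed fibre markers (r = 0.63, 0.59 within groups) and against macrophage (-0.70, -0.42 within groups) and neutrophil markers (-0.71, -0.49 within groups). It moved as closely with adipocyte (0.66, 0.36 within groups) and smooth muscle and pericyte markers (0.65, 0.27 within groups) over all libraries. At 20 h the fibre sum was 46800 to 118800 CPM, overlapping the controls, and the macrophage sum 517 to 1384 CPM, above every control. The part of these cells in the FST values was not tested.

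ACVR2B (chromosome 13, 23237699 to 23276086), the receptor, held near the control range until 24 h. Controls ran from 12.1 to 28.7 CPM with a median of 17.6 CPM. The 4, 8, 12 and 16 h libraries spanned 8.65 to 27.2, 12.7 to 19.6, 9.45 to 23.8 and 10.2 to 16.9 CPM, with no call and differences between -0.50 and -0.09. At 24 h the values were 6.01, 5.24, 7.22 and 4.65 CPM, below every control, as in 14.7% of all genes (-1.68 ± 0.36, 3.21-fold lower, edgeR adjusted p = 2.86e-04). At 20 h they were 35.4, 14.8, 9.85 and 6.32 CPM, with replicate 1 above every control and replicates 3 and 4 below all of them, and no call (-0.16 ± 0.33, edgeR adjusted p = 0.706).

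Without 20 h replicate 1, ACVR2B was called lower at 20 h too (-0.84, edgeR adjusted p = 0.0356), and the fall from 20 to 24 h, called with it (-1.52 ± 0.40, edgeR adjusted p = 0.0319), was not (-0.84, edgeR adjusted p = 0.263). That library also held the highest MSTN, FST and IGFBP5 of its group and 16150 CPM of TNNT3 against 7285 to 7428 CPM in the other 3. Across libraries ACVR2B moved with the summed fibre markers (r = 0.68, 0.60 within groups). Macrophage (-0.54, -0.43 within groups) and neutrophil markers (-0.40, -0.51 within groups) moved against it. The part of fibre content and of these cells in the ACVR2B values was not tested. At 48 h ACVR2B was at 6.44, 23.0, 11.3 and 18.0 CPM, with replicate 1 as low as at 24 h and replicates 2 and 4 inside the control range (-0.34 ± 0.34, edgeR adjusted p = 0.503). The 24 h call held with a set term and with the fibre ratio, and in each fit that left out 1 library.

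Ordered by group mean, few neighbouring groups were separate. IGF1 ranked from control through 48, 16, 4, 24, 20 and 12 to 8 h, and only 12 h (3.12 to 3.61 CPM) and 8 h (1.30 to 2.35 CPM) did not overlap. IGF1R ranked from 24 through 20, 16, 8 and 48 h to control, 12 and 4 h, with gaps between 20 and 16 h and between 16 and 8 h. IGFBP4 ran from 8 through 16, 12, 20, 24, 48 and 4 h to control, and IGFBP5 from 48 h through control, 4, 12, 24, 16 and 20 to 8 h, with every neighbour overlapping. MSTN ran from control through 4, 48, 12, 20, 8 and 16 to 24 h and FST from 4 h through control, 48, 16, 12, 8 and 24 to 20 h, again with overlap at each step. ACVR2B ran from control through 8, 20, 12, 4, 48 and 16 to 24 h, and 16 and 24 h did not overlap.

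Between successive times, the step from 4 to 8 h held 5 calls of 7 members (31.3% of all genes), with IGF1 (-1.27), IGFBP5 (-2.39) and FST (-1.63) falling and IGFBP4 (1.18) and IGF1R (0.60) rising. From 8 to 12 h only IGFBP5 was called (1.52, edgeR adjusted p = 0.0387, beside 12.1% of all genes), and from 12 to 16 h only IGF1R (0.87, edgeR adjusted p = 0.0117, beside 14.2%). From 16 to 20 h edgeR called 0 of 7 (2.16% of all genes), IGF1 and IGF1R had an unadjusted p under 0.05, and DESeq2 called 0. From 20 to 24 h only ACVR2B was called (3.21% of all genes). From 24 to 48 h IGF1R fell and IGFBP5, FST (1.51) and ACVR2B (1.34) rose, which made 4 calls of 7 (19.5% of all genes). These steps are the least secure results: 12 of 42 pairs of member and step were called (28.6%, beside 13.7% over all genes), but 2 with the set term and 3 without the 8 libraries of set 2, and with the set term IGFBP4 turned to -0.26 from 4 to 8 h (edgeR adjusted p = 0.9). Leaving out single libraries ended 8 of the 12 step calls, and the other 4 were IGFBP4 and IGFBP5 from 4 to 8 h and IGF1R and IGFBP5 from 24 to 48 h. Without 4 h replicate 1 the steps of IGF1 (-0.97, edgeR adjusted p = 0.0678) and FST (-0.99, edgeR adjusted p = 0.189) from 4 to 8 h were not called, and without 48 h replicate 2 neither were those of FST (1.00, edgeR adjusted p = 0.245) and ACVR2B (1.04, edgeR adjusted p = 0.0964) from 24 to 48 h. IGF1R was not called from 12 to 16 h without 12 h replicate 3 (0.78, edgeR adjusted p = 0.0526) or 4 (0.75, edgeR adjusted p = 0.0592), and IGFBP5 not from 8 to 12 h without 12 h replicate 3 (1.22, edgeR adjusted p = 0.193). Without control replicate 2, IGF1 was called higher from 8 to 12 h (0.94, edgeR adjusted p = 0.0498), from 12 to 16 h (0.98, edgeR adjusted p = 0.0267) and from 24 to 48 h (0.90, edgeR adjusted p = 0.0264), and MSTN was called higher from 24 to 48 h without control replicate 5 (1.88, edgeR adjusted p = 0.0474) or 48 h replicate 1 (2.17, edgeR adjusted p = 0.0445).

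Across the 37 libraries IGFBP5 and FST varied together (Pearson r of log2 CPM 0.74, 0.64 within groups), as did MSTN and FST (0.71, 0.66 within groups). IGF1R varied against FST (-0.68, -0.40 within groups), MSTN (-0.67, -0.48) and IGFBP5 (-0.65, -0.47). IGFBP4 and IGFBP5 were opposed over all libraries (-0.49) but not within groups (0.02). IGF1 followed IGFBP5 over all libraries (0.53) and had within-group values between -0.06 and 0.10 with every other member. These values share libraries, scaling and, for most libraries, animals.

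The genes around the members were read from 5 lists. Of 10 measured genes of the other IGF ligand, receptor and binding protein group, 5 were higher and 1 lower at 8 h (60.0% called, beside 54.0% of all genes), and 3 were lower at 24 h (30.0% beside 53.9%). The median difference was 0.56 at 8 h beside -0.07 over all genes tested, and -0.44 at 24 h beside -0.02. IGFBP2, another binding protein, rose at 8, 16 and 20 h (1.37, 1.45 and 0.81), and IGF2BP2, which binds IGF2 mRNA, rose at 4 times with a peak of 1.52 at 8 h. IGFBP7 fell at 8, 12, 20 and 24 h (-1.54 at 20 h), as IGFBP5 did at 3 of those times. GHR, the growth hormone receptor upstream of IGF1, fell at 16, 20 and 24 h (-1.29, -0.81 and -1.62), and INSR, the insulin receptor, at 4, 12 and 48 h (-0.78, -0.68 and -0.66). IGF2R, which clears IGF2, rose at 8 and 20 h (0.56 and 0.49), and HTRA1, a protease that cleaves IGFBP5, at 48 h (0.77). PAPPA, a protease that cleaves IGFBP4, was called higher at 8 and 16 h (1.27 and 1.15, edgeR adjusted p = 0.0103 and 0.019) and is named after its values were seen. STC1 and STC2 inhibit that protease. STC1 rose at 16 h (1.69), and STC2 rose at 8 h (1.03) and fell at 24 and 48 h (-2.01 and -1.82).

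Inside the cell, 9 of 33 measured insulin and IGF signalling genes were higher and 8 lower at 8 h, and 4 were higher and 15 lower at 24 h, with a median of -0.31 beside -0.02 over all genes. The shares called, 51.5% and 57.6%, were near the 54.0% and 53.9% of all genes. IRS1, the adaptor under the receptor, fell at 8, 16 and 24 h (-0.97, -1.19 and -2.27), and IRS2 fell at 4, 12 and 24 h (-1.84, -1.63 and -1.98). SHC1, an adaptor towards the MAP kinase branch, rose at the 5 times from 8 to 24 h (1.29 at 24 h, edgeR adjusted p = 1.01e-08). PIK3CB, a PI3 kinase catalytic subunit, rose at the 6 times from 8 h on (1.87 at 20 h), while PIK3CA fell at 8, 16 and 48 h by at most 0.71 on the log2 scale. PIK3R1, a regulatory subunit, rose at 8 h (0.96) and fell at 24 h (-1.08). Of the inhibitors of mTOR signalling, SESN2 rose at 8, 20 and 48 h (1.13, 1.32 and 1.11), DDIT4 at 12 and 16 h (0.81 and 0.94), and SESN1 fell at 8, 16 and 24 h (-1.55, -0.67 and -0.97). RPS6KB1, an S6 kinase under mTOR, rose at 4 and 12 h (0.43 and 0.44), and EIF4EBP2, a repressor of translation, fell at the 5 times up to 20 h (-0.87 at 20 h). GRB14, an adaptor that inhibits the insulin receptor, was lower at all 7 times, from 12.6 ± 12.4 CPM (SD, n = 9) in the controls to 0.444 ± 0.195 CPM (SD, n = 4) at 24 h (-4.80 ± 0.86, edgeR adjusted p = 3.15e-05). Its control SD was close to its mean.

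On the myostatin side, 4 of 9 measured ligand, processing and inhibitor genes were higher and 2 lower at 8 h (66.7% called, beside 54.0% of all genes, with a median of 0.46 beside -0.07). The shares called at 4, 12 and 16 h were 44.4%, 44.4% and 55.6%, beside 18.3%, 31.0% and 53.1% of all genes. At 20, 24 and 48 h they were 44.4%, 33.3% and 0%, beside 51.5%, 53.9% and 20.3%. FSTL3, a follistatin-like inhibitor, rose at each time at which FST fell and at 4 h: it went from 13.9 ± 3.11 CPM (SD, n = 9) in the controls to 116 ± 40.9 CPM (SD, n = 4) at 8 h (3.06 ± 0.24, edgeR adjusted p = 6.41e-11) and was higher at the 6 times up to 24 h. INHBB, which encodes an activin subunit, rose at the 5 times up to 20 h (2.59 at 8 h), and FURIN, a convertase of the proprotein, at the 6 times up to 24 h (1.65 at 8 h). DCN, a matrix proteoglycan that binds myostatin, fell at 8, 16, 20 and 24 h (-1.84 at 20 h), and LTBP3, which keeps TGF-beta family ligands latent, at 4, 8 and 12 h. WFIKKN2, an inhibitor of myostatin, and INHBA, another activin subunit, are named after their values were seen, with differences of -0.69 to 0.05 and -0.81 to 0.17 over the 7 times, none of them called.

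Among the 17 measured receptors, SMADs and SMAD regulators, 9 were higher and 4 lower at 8 h (76.5% called, beside 54.0% of all genes, with a median of 0.47 beside -0.07). The shares called at 4, 12 and 16 h were 29.4%, 29.4% and 35.3%, beside 18.3%, 31.0% and 53.1% of all genes. At 20, 24 and 48 h they were 41.2%, 41.2% and 0%, beside 51.5%, 53.9% and 20.3%. TGIF1, a repressor of SMAD-driven transcription, rose at the 6 times up to 24 h (3.73 ± 0.40 at 8 h, edgeR adjusted p = 1.2e-08). ACVR1B, the type I partner of the activin receptors, rose at 8, 12, 16 and 20 h (1.25 at 16 h), and ACVR2A, the close relative of ACVR2B, fell at 8, 16, 20 and 24 h by at most 0.71 on the log2 scale. SMAD7, an inhibitory SMAD, fell at 4, 12, 20 and 24 h (-0.95 at 24 h). SMAD2 fell at 8 h (-0.64) and ACVR1, another type I receptor, at 8 and 16 h (-0.53 and -0.45). NEDD4L, a ubiquitin ligase that acts on SMADs, rose at 8, 20 and 24 h (1.10 at 24 h), and SKIL, a SMAD repressor, at 4 h (0.64). Of the 6 FOXO-regulated wasting genes, 3 were higher and 1 lower at 16, 20 and 24 h (66.7% called at each, beside 51.5% to 53.9% of all genes). TRIM63, a ubiquitin ligase of sarcomere proteins, rose at all 7 times, from 436 ± 110 CPM (SD, n = 9) to 4518 ± 1151 CPM (SD, n = 4) at 16 h (3.37 ± 0.31, edgeR adjusted p = 1.42e-09). FBXO32, the second main wasting ligase, rose from 8 to 24 h (2.45 at 20 h), as did FBXO30, an F-box protein (1.87 at 16 h). FBXO21, another F-box protein, fell at 6 times, all but 24 h (-0.81 at 8 h), and KLF15 fell at 8, 12 and 24 h (-2.14, -1.25 and -2.19).

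**Figure D5:**
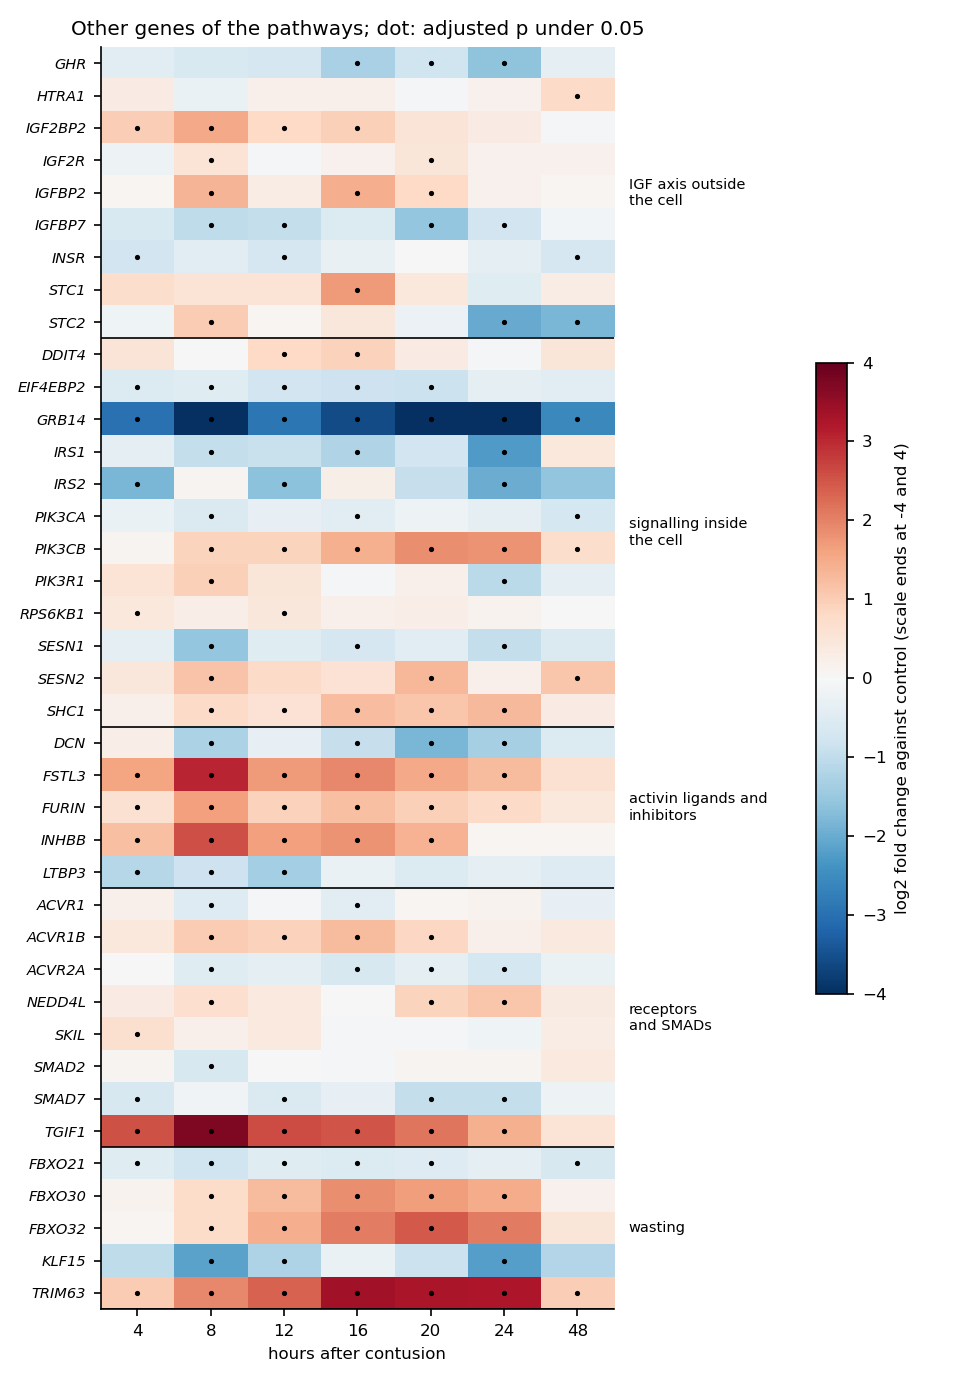
Log2 fold change against the 9 controls (colour, ends at -4 and 4) for the named genes of the 5 lists around the members (rows) at each time in hours after contusion (columns); a dot marks an edgeR adjusted p under 0.05. FSTL3, TGIF1 and TRIM63 are red at most times with 3.06, 3.73 and 1.91 at 8 h, and GRB14 is blue throughout, at -4.01 at 8 h.

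Over the 37 libraries and among 9394 genes of at least 1 CPM, the closest patterns by Pearson r of log2 CPM were PLEKHH2, CALD1 and PDGFD for IGF1 (0.87, 0.83 and 0.81) and PARP4, SEL1L and NCOA2 for IGF1R (0.90, 0.89 and 0.89). For IGFBP4 they were RASA3, MICALL2 and AMPD2 (0.91, 0.89 and 0.86), and for IGFBP5 PDGFRL, ANGPTL1 and ACE (0.90, 0.89 and 0.89). MSTN was closest to ATL2, AMPD1 and PIGH (0.89, 0.88 and 0.86), FST to CHRDL1, COL15A1 and GPC3 (0.91, 0.86 and 0.85), and ACVR2B to TLN2, NFIX and MTMR3 (0.91, 0.87 and 0.87). Within groups the same 21 values ran from 0.59 to 0.89. They describe these libraries only.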

How the data were processed

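The authors deposited raw counts per gene symbol, 1 table of 9418 rows and 37 columns, each matched to a sample by title. Per the labels' protocols, RNA from frozen muscle was extracted with Trizol and sequenced as paired reads. FastQC, MultiQC, Trimmomatic, HISAT2 2.2.1, HTSeq and Sscrofa11.1 come from the submitters' processing notes. The annotation release and the strand setting are not given in the sources used here, so reads of a gene and an overlapping antisense gene cannot be told apart. No row has a maximum under 101 counts, so the table covers a part of each library, and its column sums of 9.86 to 22.88 M counts understate the depth. The rule that chose the rows is not given. Only 8 of 15 listed muscle fibre genes had a row, so a missing row is not read as a low level.

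With edgeR 4.0.16 and limma 3.58.1 in R 4.3.3, the counts were scaled by TMM and filtered with filterByExpr (9411 genes kept), and a quasi-likelihood model with robust dispersion and group as the only factor was fitted to all 37 libraries. Each time against control, the 7 times together and the 6 successive steps were tested, with Benjamini-Hochberg adjustment over all genes and a threshold of 0.05. Alternatives were relative log expression size factors, scaling by column totals, no filter, a mean of at least 5 CPM, DESeq2 1.42.0, a replicate block, only the groups compared, a term for 5 library sets, leaving out set 2 and leaving out each library. The fibre ratio term and the fit without 48 h replicates 2 and 4 were added after the data were seen. The sets were taken over from an earlier analysis, which parted the libraries first by a column total over 20 M, next by C1QBP over 8 CPM, next by NDUFAF8 under 4 CPM and last at 32 CPM of ND6. Count ratios add 0.5 to each count. The members, lists and sets were chosen with earlier results of these data known.

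All members are named. From each of the 5 pathway lists, up to 2 called genes in each direction at each time with the largest change and at least 5 CPM in the higher group are named, and for each member the 3 genes with the highest Pearson r. Lists are given as counts and medians, with no test. Gene spans are from a RefSeq gene table of Sscrofa11.1, where all 10 listed symbols matched. No 2 libraries of a group agreed within sampling noise (lowest chi-square per degree of freedom 16.1 over 78 pairs). On simulated counts over 9418 genes, the share recovered at 8 h was 63% for genes with a log2 change of 1 and 97% for a change of 2, and at 48 h 57% and 99%. Of the simulated calls 5.33% at 8 h and 6.02% at 48 h were false. The simulated libraries were independent, with few genes changed and without shared animals or library sets. These shares may therefore not hold for the real libraries.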

Additional observations from a re-analysis of the deposited data

Results flagged for a closer look

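In 4 of 56 groups of libraries checked, 1 library stood apart from the other 3 by Dixon's criterion, which chance meets in about 1 of 20 groups. IGFBP4 was 62.3 CPM in 20 h replicate 1, with the others at 77.5 to 78.7 CPM, and 99.7 CPM in 24 h replicate 1, with the others at 43.5 to 51.5 CPM. IGFBP5 was 72.2 CPM in 12 h replicate 3, with the others at 36.4 to 38.7 CPM. FST was 5.59 CPM in 20 h replicate 1, with the others at 1.48 to 2.03 CPM.

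In 4 successive steps the difference from control changed sign and the step itself passed edgeR's quasi-likelihood test. IGF1R went from -0.30 at 4 h to 0.30 at 8 h (step 0.60, edgeR adjusted p = 0.0452) and from -0.09 at 12 h to 0.78 at 16 h (step 0.87, edgeR adjusted p = 0.0117). IGFBP5 went from -1.73 at 24 h to 0.61 at 48 h (step 2.34, edgeR adjusted p = 0.00126). FST went from 0.08 at 4 h to -1.55 at 8 h (step -1.63, edgeR adjusted p = 0.0234). With the set term neither IGF1R step nor the FST step was called (edgeR adjusted p = 0.74, 0.741 and 0.616). The same held without set 2 (edgeR adjusted p = 0.0992, 0.319 and 0.394). Against control IGF1R was not called at 4 or 8 h (edgeR adjusted p = 0.294 and 0.191), and its libraries lay inside the control range.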

How the results depend on the processing

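The 26 calls against control numbered 23 to 29 under every alternative over all 37 libraries except the replicate block, and 24 to 27 when each library was left out in turn; the calls over the 7 times together numbered 5 to 7 (6 to 7 leaving out a library). The 12 calls between successive times became 2 with the set term and 3 without set 2, and 8 to 15 leaving out each library. IGFBP4 from 4 to 8 h turned to -0.26 with the set term. Same-numbered libraries of different groups deviated together with a median r of 0.04 (-0.60 to 0.58, 112 pairs, 42 over 0.1) and 12 of 32 correlated best with their own number, so the number gives no pairing. With the replicate number as a block the counts were 19, 6 and 12: MSTN was not called at 8, 16, 20 and 24 h (-0.09, -0.57, -0.06 and -0.79) and FST at 8, 12 and 16 h (-1.20, -1.16 and -1.04). Numbers 5 to 9 occur in controls only, so this fit sets each time against control replicates 1 to 4. It thereby leaves out control replicates 5, 6 and 7, which hold the most MSTN, and cannot serve as a check on pairing alone. Scaling by column totals shifted the median change of all genes by -0.15 at 4 h and by 0.33 to 0.48 from 16 to 48 h, and then IGFBP4 was called at 24 h (0.94) and 48 h (0.89).

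Over all genes, these counts of calls moved by over 1.5 times. With the set term they were 259 of 1721 at 4 h, 2575 of 4995 at 16 h, 1108 of 1906 at 48 h, 54 of 302 for the step up to 24 h, 842 of 1832 for that up to 48 h, and 0 by edgeR for the steps from 4 to 8, 8 to 12, 12 to 16 and 16 to 20 h (841, 873, 548 and 645 genes at an unadjusted p under 0.05), where the counts were 2950, 1138, 1339 and 203. Without set 2 they were 658 at 4 h and 128, 243, 64, 20 and 109 for the steps up to 24 h. Without 48 h replicates 2 and 4 they were 3448 at 48 h and 551 from 24 to 48 h. Scaling by totals gave 3348 at 48 h and 648 and 118 for the steps up to 12 and 20 h, and the fibre ratio 1597 of 2918 at 12 h, 1082 at 48 h and 322 for the step up to 20 h. In fits of the groups compared alone 48 h had 932 and the steps up to 12, 20 and 48 h had 234, 444 and 903, and DESeq2 gave 412 and 558 for the steps up to 20 and 24 h. Leaving out a library gave 608 to 1954 at 4 h, 1827 to 3046 at 12 h and 368 to 2732 at 48 h, lowest without 4 h replicate 2, 12 h replicate 1 and 48 h replicate 1. For the 6 steps in order it gave 1610 to 3536, 135 to 1895, 567 to 1788, 65 to 261, 98 to 384 and 1048 to 2442, lowest without 8 h replicate 1, 12 h replicate 3, 16 h replicate 1 (for both steps of 16 h), 24 h replicate 4 and 48 h replicate 4. The lowest count of a member in any library was 15.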
